A study of Mus musculus with 14 samples.

Results

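The genes described here are 48 members of the transforming growth factor beta (TGF-beta) and bone morphogenetic protein (BMP) signalling pathways. They were found by their symbols among the 55291 genes counted by bulk RNA-Seq in samples of esophageal epithelium and stroma. In the authors' methods the muscle layer was removed with forceps, which left an epithelium-enriched layer. The members comprise 14 ligands, 4 latent TGF-beta binding proteins, 7 antagonists, 12 receptors, 8 Smads and 3 Id genes, which are targets of BMP signalling. All 48 symbols were present in the count files. The mice were wild type C57BL/6 animals, untreated as far as the labels state. Epithelium came from 5 aged mice (O1, O2, O3, OF5 and OM8) and 4 young mice (Y1, Y3, YF5 and YM4), and stroma from O1, O2, O3, Y1 and Y3 of the same animals. The labels place aged mice at 18 months or older and young mice at 4 months or younger, without an exact age or a sex for each animal. Each sample is a piece of tissue that holds several cell types, so fewer cells of a type and less RNA per cell cannot be told apart.

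In these pathways a secreted ligand, often kept latent in the matrix or held by an antagonist, brings together type I and type II receptors on the cell surface. TGF-beta, activin and myostatin signals pass mainly through Smad2 and Smad3, and BMP signals through Smad1, Smad5 and Smad9, each with the shared partner Smad4, while Smad6 and Smad7 inhibit them. In squamous epithelia TGF-beta is known to restrain the proliferation of basal cells, BMP signalling is known to accompany differentiation, and myostatin limits the growth of skeletal muscle.

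Total counts per sample ranged from 8217516 to 21867101, and normalized counts are given here as CPM on the library size adjusted by TMM (the trimmed mean of M values). The summed markers of epithelium (8 genes) reached 18993 to 56114 normalized counts in the epithelial samples against 51.1 to 482 in stroma. The summed markers of skeletal muscle (12 genes) reached 42353 to 76538 in stroma against 169 to 1855 in epithelium, so the tissue labelled stroma held abundant RNA of striated muscle. Fibroblast markers (6 genes) overlapped between the layers, with 280 to 632 in epithelium and 415 to 1031 in stroma. Smooth muscle markers (5 genes) overlapped too, with 333 to 835 in epithelium and 303 to 2051 in stroma. Adipocyte markers (4 genes) did not overlap, with 0 to 2.76 in epithelium and 132 to 711 in stroma. The epithelial libraries of OF5, OM8, YF5 and YM4 stood apart. A single ribosomal RNA gene, CT010467.1, held 63.9% to 73.9% of their counts against 10.4% to 23.3% in the other epithelial libraries, and the members together had 931 to 2113 counts there against 12928 to 27386 elsewhere. In those 4 libraries a count of 3 corresponds to 0.707 to 1.25 normalized counts, and in the other 10 to 0.0872 to 0.175, which is the limit that a count of 0 allows for counting error.

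Epithelium was compared with stroma to assign each member to a layer. Of the 48 members, 46 passed the filter on low counts and 2 did not (Bmp5 and Bambi). The edgeR quasi-likelihood test with Benjamini-Hochberg adjustment called 6 members higher in epithelium, where 26.1% of all 16791 genes tested were called higher, and 27 members lower, where 30.1% of all genes were called lower. The 6 were the ligands Bmp7 and Bmp3, the receptors Acvr1b and Acvr2a, Smad2 and Id1. The median log2 fold change of the tested members, epithelium against stroma, was -1.14, beside -0.05 over all genes tested. The 9 epithelial and 5 stromal samples did not overlap for 5 members that were higher in epithelium and 15 that were lower, and the shares over all genes were 14.4% and 16.9%. Without the 4 libraries that stood apart, 6 members were called higher and 27 lower, of which 6 and 26 were the same genes. With mouse as a replicate block in the 5 mice that gave both layers, 6 were called higher and 19 lower, all of them also called without the block.

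**Figure D1:**
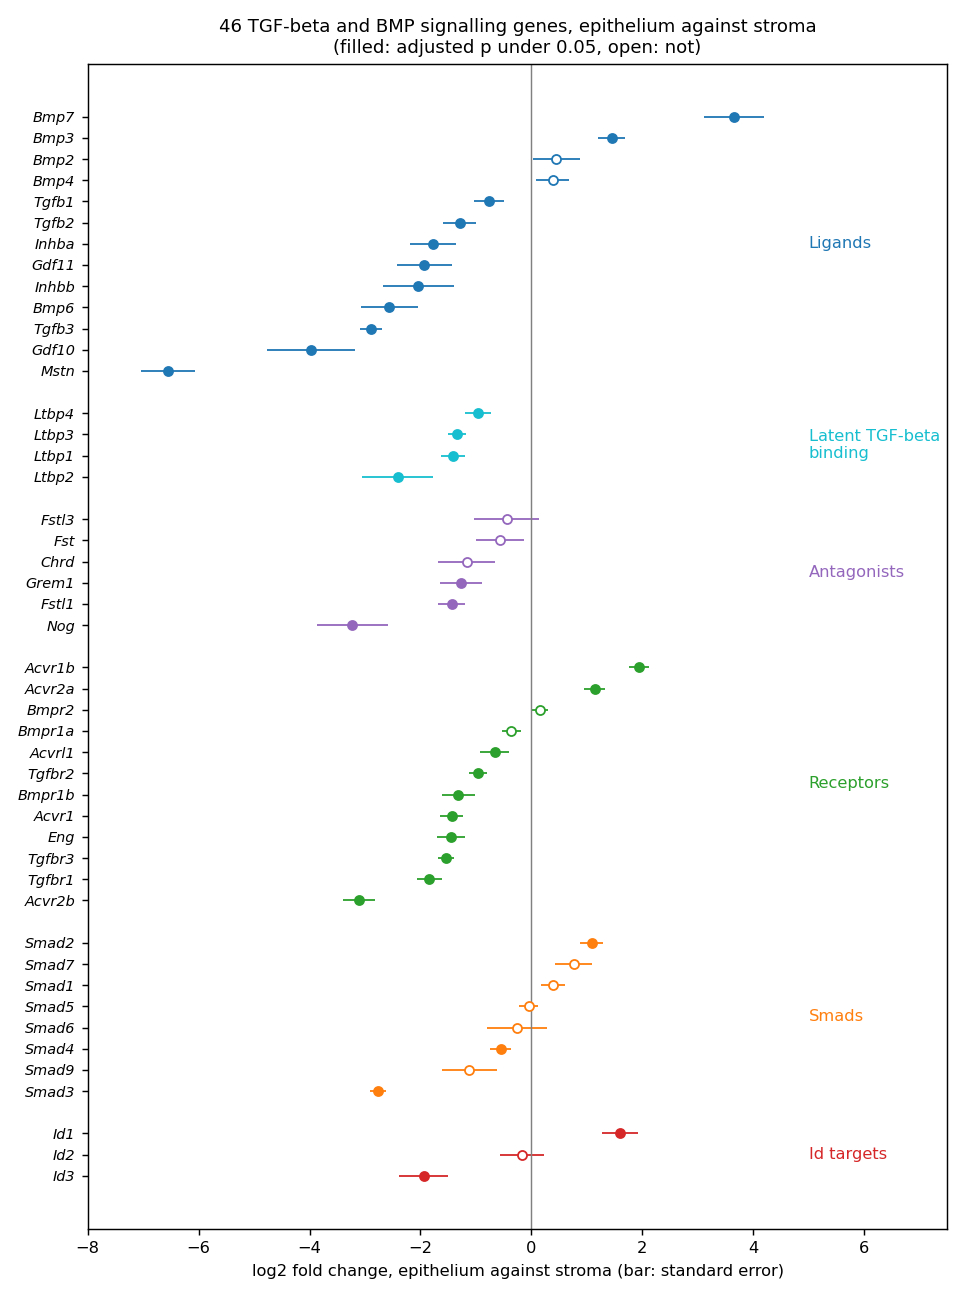
Log2 fold change of each of the 46 tested members, epithelium against stroma, with its standard error as a bar, grouped by role; filled points have an adjusted p under 0.05. The points run from -6.55 (Mstn) to 3.65 (Bmp7), and 35 of 46 lie below 0.

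Among the 14 ligands, 13 were tested, of which 2 were higher in epithelium, 9 were lower and 2 (Bmp2 and Bmp4) were not called. Bmp7 (chromosome 2, 172868012 to 172940321 in GRCm38), a BMP ligand of many epithelia, had a lowest, median and highest value of 4.48, 11.1 and 13.6 normalized counts in the 9 epithelial samples. In stroma it had 0 in O1, 0.575 in O2, 0.383 in O3, 2.22 in Y1 and 0.985 in Y3. Every epithelial value lay above every stromal value, and the log2 fold change was 3.65 ± 0.54 (SE; adjusted p = 1.31e-05, edgeR), or 4.32 without the mouse Y1. Bmp3 (chromosome 5, 98854415 to 98884396), an atypical BMP that can oppose other BMPs, had 9.17, 17.8 and 21.1 in epithelium as lowest, median and highest value. Its stromal values were 7.58 in O1, 7.23 in O2, 4.44 in O3, 3.30 in Y1 and 7.72 in Y3. The layers did not overlap, but the lowest epithelial value, that of YF5, was close to the highest stromal ones (log2 fold change 1.45 ± 0.25, adjusted p = 4.73e-05, edgeR). Both genes were higher in the epithelium of 5 of 5 mice with both layers.

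Mstn and Tgfb3 led the stromal ligands. Mstn (chromosome 1, 53061640 to 53068079), which encodes myostatin, had a lowest, median and highest value of 0, 0.0708 and 0.417 normalized counts in epithelium, each at most 11 reads. In stroma it had 11.9 in O1, 14.3 in O2, 8.11 in O3, 9.96 in Y1 and 15.4 in Y3. The log2 fold change was -6.55 ± 0.49 (adjusted p = 6.13e-10, edgeR), the largest in size among the 46 tested members, and -7.25 without the mouse Y3, whose epithelium held 11 of the Mstn reads. The markers of skeletal muscle, the tissue that is the known source of myostatin, were 12 of 12 lower in epithelium with a median log2 fold change of -6.52, and their part in the Mstn difference was not tested. Tgfb3 (chromosome 12, 86056745 to 86079041), a TGF-beta isoform, had 2.42, 2.83 and 5.86 in epithelium and 20.8, 27.1, 25.7, 27.7 and 26.2 in the stroma of O1, O2, O3, Y1 and Y3. The stromal values were tight and all more than 3 times as high as any epithelial value (log2 fold change -2.90 ± 0.20, adjusted p = 2.36e-10, edgeR).

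The promoter of Mstn is shown because this ligand differed most between the layers. It spans 250 bases before to 50 after the transcription start in RefSeq (GRCm38.p6, chr1:53061390-53061689, + strand). Capitals mark CAGAC on either strand, the core of a Smad-binding element. They also mark the TATA box letters TATAAA, which here begin 29 bases before the start.
Mstn: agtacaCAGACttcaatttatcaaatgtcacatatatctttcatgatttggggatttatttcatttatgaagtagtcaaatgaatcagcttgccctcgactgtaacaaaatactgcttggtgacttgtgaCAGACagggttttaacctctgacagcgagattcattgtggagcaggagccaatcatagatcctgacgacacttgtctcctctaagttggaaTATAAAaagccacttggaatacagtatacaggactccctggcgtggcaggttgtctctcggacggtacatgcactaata

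CAGAC on either strand was found in 49.6% of the 32851 mouse promoters of this length and in 21 of the 43 promoters that matched 35 of the members. TATAAA on either strand was found in 13.6% of all promoters and in 6 of the 43. The motif GGCGCC, which some Smad complexes bind and which is its own reverse complement, was in 11.9% of all promoters and in 13 of the 43, among them those of Acvr1b, Bmpr1a, Bmpr2, Tgfbr1, Smad5, Smad9 and Id2, and in none of the 4 promoters shown. These matches describe letters in a window and do not show that a factor binds there.

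The other stromal ligands were lower in expression. Tgfb1 (3.13 ± 0.841 normalized counts in 9 epithelial samples against 5.45 ± 1.54 in 5 stromal samples, mean ± SD) and Tgfb2 (2.59 ± 0.686 against 6.54 ± 3.60) are the other TGF-beta isoforms, with log2 fold changes of -0.76 ± 0.27 and -1.30 ± 0.30. Inhba and Inhbb, which encode the subunits of activins, fell by 1.78 and 2.04 on the log2 scale in epithelium relative to stroma. Bmp6, a BMP close to Bmp7 in sequence, had 0.589 ± 0.441 in epithelium against 3.75 ± 2.79 in stroma (log2 fold change -2.56 ± 0.51, adjusted p = 0.000228, edgeR). Exons of Bmp6 overlap those of Txndc5, and it is not stated whether strand was used in counting. Gdf11, the closest relative of myostatin, had a log2 fold change of -1.93 ± 0.49, although the stroma of O3 with 0.497 lay below most epithelial samples. Gdf10, a relative of Bmp3, had -3.97 ± 0.79 with stromal values from 0 in O1 to 6.04 in O3. With mouse as a replicate block, the calls of Tgfb1 (adjusted p = 0.142), Gdf10 (log2 fold change -2.997, adjusted p = 0.0552) and Inhbb (adjusted p = 0.0561) were lost. Bmp2 and Bmp4, BMPs with wide roles in development, had 4.33 ± 1.30 and 3.71 ± 0.984 in epithelium against 3.10 ± 2.72 and 2.86 ± 1.05 in stroma, and were higher in the epithelium of 4 of 5 mice each. Their log2 fold changes were 0.45 ± 0.42 and 0.38 ± 0.30, below the threshold. Bmp5 had at most 0.345 in epithelium and 0 to 2.95 in stroma.

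Divided by the length of their merged exons, which allows levels of different genes to be set side by side, the 14 ligands summed to 10.5 ± 1.22 normalized counts per kilobase in epithelium (SD, n = 9) and 20.8 ± 2.16 in stroma (n = 5). In epithelium the summed mean was shared among Bmp7 (24.4%), Bmp3 (20.98%) and Bmp4 (15.7%). In stroma Tgfb3 made up 36.2%, Mstn 21.2% and Bmp4 6.13%. The most abundant ligands were therefore BMPs in the epithelial samples and a TGF-beta and myostatin in the stromal samples.

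All 4 latent TGF-beta binding proteins, matrix proteins that hold TGF-beta in its inactive form, were lower in epithelium, with a median log2 fold change of -1.38. Ltbp1 (chromosome 17, 75005568 to 75392512) had 4.17, 9.30 and 9.80 normalized counts in epithelium as lowest, median and highest value, and 16.6 in O1, 35.5 in O2, 29.5 in O3, 15.4 in Y1 and 16.9 in Y3 stroma. Ltbp3 (chromosome 19, 5740904 to 5758532) had 9.58, 16.3 and 20.03 in epithelium and 29.5, 41.4, 44.9, 45.6 and 42.3 in the stroma of the same mice. For both genes each stromal sample lay above each epithelial sample, with log2 fold changes of -1.42 ± 0.22 and -1.34 ± 0.16 (adjusted p = 1.42e-05 and 5.84e-07, edgeR). Ltbp4, at 78.2 ± 16.2 in epithelium and 154 ± 70.7 in stroma, held 82.2% of the summed level per kilobase of the family in epithelium and 77.1% in stroma. Its stromal values ran from 81.7 in O1 to 238 in O3 and overlapped those of epithelium (log2 fold change -0.97 ± 0.23). Ltbp2, which binds no TGF-beta itself, had -2.41 ± 0.65, or -3.04 without the mouse O1. The calls of Ltbp4 (adjusted p = 0.0761) and Ltbp2 (adjusted p = 0.0559) were lost with mouse as a replicate block.

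Of the 7 antagonists, 6 were tested, of which 3 were lower in epithelium, none was higher and 3 were not called. Fstl1 (chromosome 16, 37776873 to 37836514), a secreted glycoprotein of mesenchymal cells, had 18.4, 27.0 and 49.5 normalized counts in epithelium as lowest, median and highest value. In stroma it had 50.1 in O1, 102 in O2, 124 in O3, 59.1 in Y1 and 52.3 in Y3. The highest epithelial value, that of YM4, and the lowest stromal one were nearly equal, and the log2 fold change was -1.43 ± 0.24 (adjusted p = 3.89e-05, edgeR). Fstl1 alone held 69.4% of the summed antagonist level per kilobase in epithelium and 73.0% in stroma. Nog, which encodes the BMP antagonist noggin, had 0.263 ± 0.298 in epithelium against 1.96 ± 1.02 in stroma (log2 fold change -3.23 ± 0.65, adjusted p = 0.000261, edgeR). Grem1, the BMP antagonist gremlin, had a log2 fold change of -1.27 ± 0.38 with stromal values from 1.91 in Y1 to 18.0 in O2. Its call was lost with mouse as a replicate block (adjusted p = 0.106), and without O2 (log2 fold change -0.78, adjusted p = 0.107, edgeR). Chrd, the BMP antagonist chordin, and Fst and Fstl3, which bind activins and myostatin, had log2 fold changes of -1.17 ± 0.51, -0.56 ± 0.44 and -0.44 ± 0.59. Exons of Chrd overlap those of Thpo and exons of Fstl3 those of Prss57. Bambi, a receptor without kinase activity, had at most 0.346 in epithelium and 0 to 3.06 in stroma. Among the 6 fibroblast markers 3 were lower in epithelium with a median log2 fold change of -0.61 over all 6, and their part in the antagonist values was not tested.

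**Figure D2:**
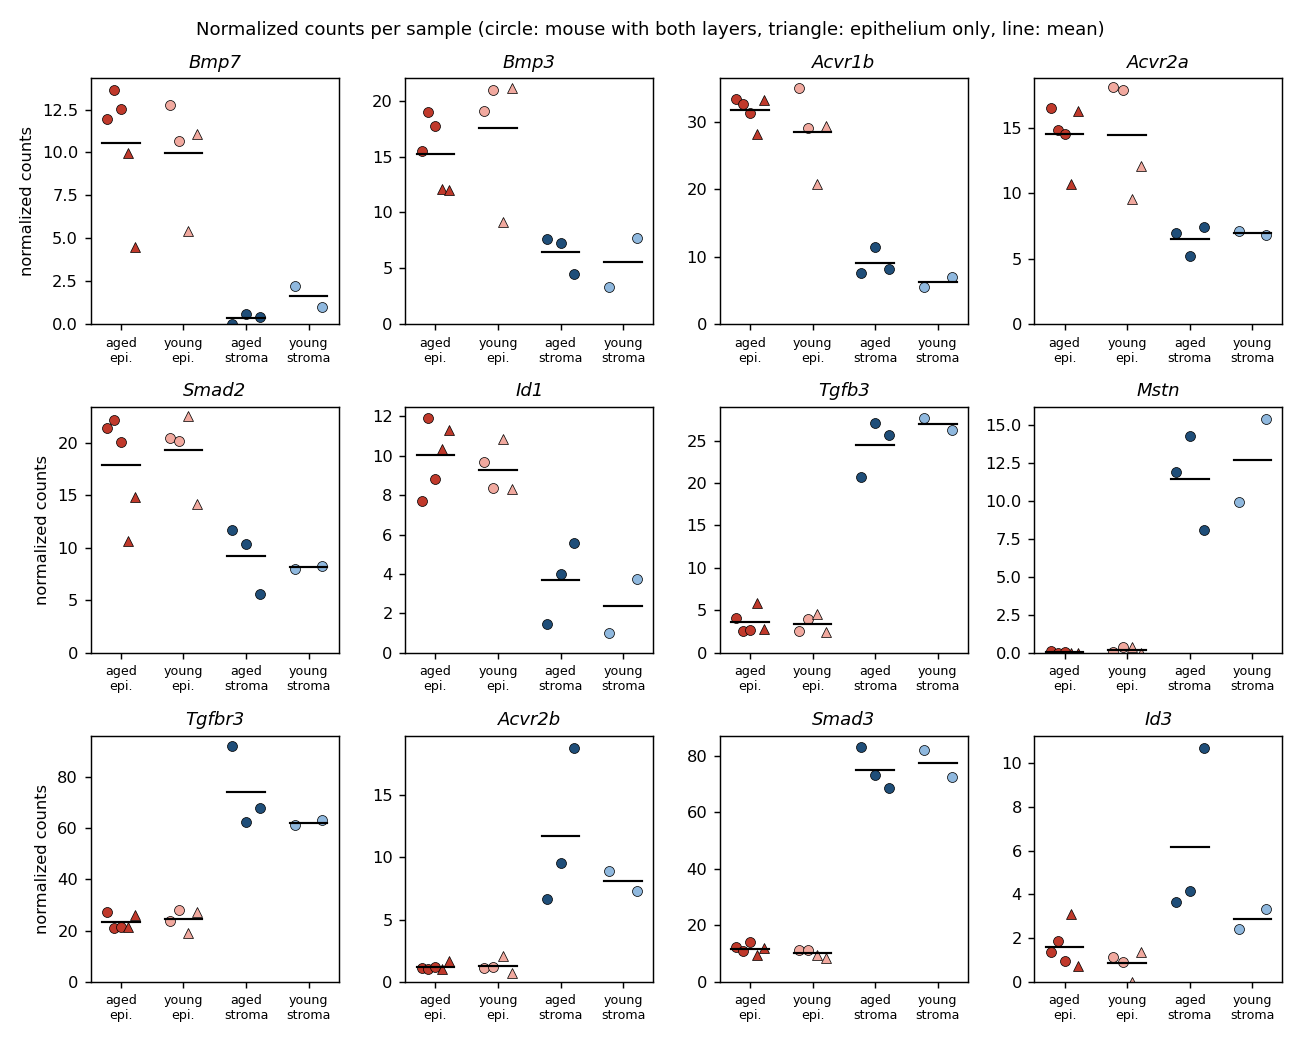
Normalized counts (vertical axes) of 12 members in each sample of the 4 groups, with circles for mice that gave both layers, triangles for the 4 mice with epithelium only and a line at each group mean. Bmp7, Bmp3, Acvr1b, Acvr2a and Id1 lie higher in every epithelial sample than in any stromal sample, and Tgfb3, Mstn, Tgfbr3, Acvr2b and Smad3 lie lower.

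The 12 receptors were all tested, and 2 were higher in epithelium, 8 were lower and 2 were not called. Acvr1b (chromosome 15, 101174067 to 101213684), a type I receptor for activins, had 20.8, 31.3 and 35.0 normalized counts in epithelium as lowest, median and highest value. In stroma it had 7.58 in O1, 11.4 in O2, 8.22 in O3, 5.52 in Y1 and 6.97 in Y3. The layers were well apart, with a log2 fold change of 1.94 ± 0.18 (adjusted p = 2.01e-08, edgeR). Acvr2a (chromosome 2, 48814109 to 48903269), a type II receptor for activins, had 9.58, 14.9 and 18.1 in epithelium and 6.94, 5.22, 7.38, 7.12 and 6.82 in the stroma of O1, O2, O3, Y1 and Y3. It was higher in every epithelial sample than in any stromal one (log2 fold change 1.14 ± 0.19, adjusted p = 3.93e-05, edgeR). Exons of Acvr2a overlap those of Orc4.

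The other type II activin receptor went the opposite way. Acvr2b (chromosome 9, 119402118 to 119434995), which also binds myostatin, had 0.692, 1.10 and 2.08 in epithelium and 6.65, 9.57, 18.8, 8.93 and 7.29 in the stroma of O1, O2, O3, Y1 and Y3. Each stromal value was more than 3 times the highest epithelial one (log2 fold change -3.11 ± 0.29, adjusted p = 1.57e-08, edgeR). The promoters of these related receptors are shown because their genes differed between the layers in opposite directions. They are taken from RefSeq in GRCm38.p6 with the same extent and capitals as above, Acvr2a at chr2:48813859-48814158 and Acvr2b at chr9:119401928-119402227, on the + strand. Each holds the CAGAC motif a single time, on the reverse strand, and no TATA box, and their G and C content is 80.3% and 73.3%, against 41.3% in the Mstn promoter.
Acvr2a: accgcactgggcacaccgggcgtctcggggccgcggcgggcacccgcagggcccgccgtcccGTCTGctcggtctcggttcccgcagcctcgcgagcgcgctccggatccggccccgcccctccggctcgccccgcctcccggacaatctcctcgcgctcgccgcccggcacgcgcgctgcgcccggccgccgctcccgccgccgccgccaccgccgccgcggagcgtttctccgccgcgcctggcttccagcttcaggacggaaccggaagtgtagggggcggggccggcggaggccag
Acvr2b: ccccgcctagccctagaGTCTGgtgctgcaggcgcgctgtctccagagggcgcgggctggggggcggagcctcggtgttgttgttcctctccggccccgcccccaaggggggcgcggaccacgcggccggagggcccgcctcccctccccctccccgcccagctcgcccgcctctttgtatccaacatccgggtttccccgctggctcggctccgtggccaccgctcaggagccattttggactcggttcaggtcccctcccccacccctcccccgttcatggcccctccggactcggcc

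The receptors of TGF-beta itself were lower in epithelium. Tgfbr1 (chromosome 4, 47353222 to 47414931), its type I receptor, had 1.25, 5.67 and 7.78 normalized counts in epithelium and 23.6, 18.3, 15.3, 22.9 and 20.01 in the stroma of O1, O2, O3, Y1 and Y3. Tgfbr3 (chromosome 5, 107106570 to 107289629), the co-receptor betaglycan, had 19.2, 23.6 and 27.9 in epithelium and 92.3, 62.7, 67.7, 61.2 and 63.3 in stroma. For neither gene did the layers overlap, and the log2 fold changes were -1.84 ± 0.22 and -1.53 ± 0.14 (adjusted p = 6.63e-07 and 1.69e-08, edgeR). Tgfbr2, the type II receptor, had 24.3 ± 3.24 in epithelium and 47.8 ± 14.8 in stroma (log2 fold change -0.97 ± 0.16, adjusted p = 4.34e-05, edgeR) and did not overlap either.

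Of the BMP receptors, Bmpr1a and Bmpr2 were not called. Bmpr2, the type II BMP receptor, had 78.6 ± 11.8 in epithelium and 71.0 ± 6.16 in stroma (log2 fold change 0.15 ± 0.15), and Bmpr1a, a type I receptor, had 29.4 ± 5.76 and 37.9 ± 7.85 (log2 fold change -0.36 ± 0.17, adjusted p = 0.0752, edgeR). Bmpr1b and Acvr1, other type I receptors for BMPs, had log2 fold changes of -1.32 ± 0.30 and -1.44 ± 0.21 and lay lower in all epithelial samples than in any stromal sample. Eng and Acvrl1, receptors known from endothelium, had -1.45 ± 0.25 and -0.66 ± 0.26. Exons of Eng overlap those of Fpgs. Endothelial markers were lower in epithelium in 6 of 7 cases with a median log2 fold change of -1.67, and the call of Acvrl1 was lost with mouse as a replicate block (adjusted p = 0.0861). Per kilobase, Acvr1b held 22.5% of the summed receptor level in epithelium, ahead of Bmpr1a (15.2%) and Bmpr2 (14.3%), whereas in stroma Tgfbr3 held 23.4%, ahead of Bmpr1a (13.1%) and Tgfbr2 (12.9%).

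Of the 8 Smads, Smad2 was higher in epithelium, Smad3 and Smad4 were lower and 5 were not called. Smad3 (chromosome 9, 63646767 to 63757994), a mediator of TGF-beta and activin signals, had 8.31, 11.2 and 14.1 normalized counts in epithelium as lowest, median and highest value. In stroma it had 83.2 in O1, 73.3 in O2, 68.6 in O3, 82.1 in Y1 and 72.6 in Y3. Both layers were tight and far apart, and with a log2 fold change of -2.76 ± 0.14 Smad3 had the smallest adjusted p of the members (3.02e-12, edgeR). Smad2, its partner in the same branch, had 18.5 ± 4.17 in epithelium against 8.79 ± 2.33 in stroma (log2 fold change 1.09 ± 0.21, adjusted p = 0.000183, edgeR). The Smad2 values of OF5 (10.7) and of the stroma of O1 (11.7) overlapped, and in 5 of 5 mice with both layers the epithelium was higher. The promoter of Smad3 is shown because it belongs to the member with the smallest adjusted p. It lies at chr9:63757945-63758244 on the - strand in GRCm38.p6 (RefSeq), and none of the 3 motifs was found in it.
Smad3: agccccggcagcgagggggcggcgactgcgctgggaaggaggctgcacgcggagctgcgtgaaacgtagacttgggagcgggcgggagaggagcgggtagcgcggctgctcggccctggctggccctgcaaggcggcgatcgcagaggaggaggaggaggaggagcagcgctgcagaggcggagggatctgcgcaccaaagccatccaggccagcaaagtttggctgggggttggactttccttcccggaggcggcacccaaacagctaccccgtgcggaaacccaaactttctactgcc

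Smad1 and Smad5, the mediators of BMP signals, had 11.3 ± 2.16 and 20.3 ± 3.83 normalized counts in epithelium against 8.70 ± 2.81 and 21.2 ± 3.15 in stroma. Their log2 fold changes of 0.40 ± 0.22 and -0.05 ± 0.16 did not pass the threshold. Smad9, another BMP mediator, and the inhibitory Smad6 and Smad7 had -1.12 ± 0.49, -0.26 ± 0.53 and 0.76 ± 0.33, with adjusted p of 0.0603, 0.697 and 0.0572. Smad4, the common partner, was 17.6 ± 4.56 in epithelium and 26.4 ± 3.40 in stroma (log2 fold change -0.56 ± 0.18), a call lost with mouse as a replicate block (adjusted p = 0.0558). Per kilobase, Smad3 held 48.3% of the summed Smad level in stroma, whereas in epithelium Smad4 held 29.6%, Smad5 17.1% and Smad2 13.1%.

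The 3 Id genes, which encode inhibitors of helix-loop-helix transcription factors, did not move together. Id1 had 7.70, 9.67 and 11.9 normalized counts in epithelium as lowest, median and highest value, and 1.46, 3.99, 5.58, 0.980 and 3.74 in the stroma of O1, O2, O3, Y1 and Y3. Id3 had 0, 1.13 and 3.10 in epithelium and 3.68, 4.15, 10.7, 2.43 and 3.31 in stroma. Id1 was thus higher in epithelium without overlap (log2 fold change 1.60 ± 0.33, adjusted p = 0.000302, edgeR), and Id3 was lower with an overlap through OF5 (-1.94 ± 0.44, adjusted p = 0.000947, edgeR). Id2 had 4.00 ± 1.21 and 4.65 ± 4.02 and was not called. In epithelium Id1 held 78.1% of the summed Id level per kilobase, and in stroma 37.0%, beside 37.0% for Id3.

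Several related genes thus took unequal shares of their pair in the layers, and 5 such pairs, chosen after their values were seen and given as a description only, are set out per kilobase. Acvr2a made up 76.1% to 92.4% of the sum of Acvr2a and Acvr2b in the 9 epithelial samples and 21.3% to 41.9% in the 5 stromal samples. Smad2 made up 42.0% to 59.7% of the sum of Smad2 and Smad3 in epithelium and 4.92% to 8.21% in stroma. The share of Acvr1b in its sum with Tgfbr1 was 86.3% to 96.1% in epithelium and 26.3% to 47.9% in stroma. Id1 held 83.7% to 100% of its sum with Id3 in epithelium and 38.0% to 63.6% in stroma, and Bmp7 held 88.6% to 100% of its sum with Bmp6 in epithelium and 0% to 54.4% in stroma. Shares of 100% rest on 0 reads of Id3 in YF5, and on 0 reads of Bmp6 in OF5 and YF5, which are shallow libraries. The share of 0% rests on 0 reads of Bmp7 in the stroma of O1. In none of the 5 pairs did the layers overlap. In the 5 epithelial libraries of mice with both layers alone, the share of Acvr2a was 89.3% to 91.9% and that of Smad2 47.3% to 56.0%. There the share of Acvr1b was 86.5% to 90.2%, that of Id1 89.7% to 93.5% and that of Bmp7 92.1% to 97.2%.

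**Figure D3:**
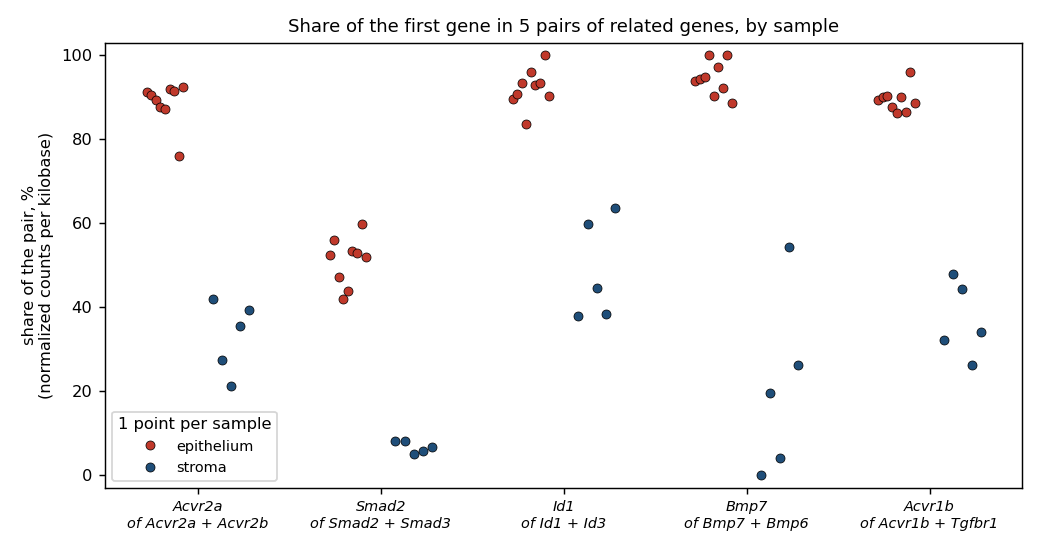
Share of the named gene in the summed normalized counts per kilobase of each of 5 pairs of related genes (vertical axis, %), with 1 point per sample, 9 epithelial in red and 5 stromal in blue. The layers do not overlap in any pair; Smad2, for example, takes 42.0% to 59.7% in epithelium and 4.92% to 8.21% in stroma.

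Beyond the members, 75 other genes of the pathway were counted, of which 47 were tested. Among the tested genes 10 were higher in epithelium and 25 lower, where 26.1% of all 16791 genes tested were called higher and 30.1% lower. None of the 19 other ligands was called, and 18 of them did not pass the filter. Of the 12 other antagonists, Chrdl1 (log2 fold change -4.16 ± 0.46), Dand5 (-3.59 ± 0.47) and Sostdc1 (-2.52 ± 0.73) were lower in epithelium. All 5 tested receptors and co-receptors were lower, led by Hjv (-7.01 ± 0.53), a BMP co-receptor abundant in skeletal muscle, Acvr1c (-4.93 ± 0.82) and Amhr2 (-4.65 ± 0.46). Of 12 genes that store or activate latent TGF-beta, 7 were lower, among them the integrin subunits Itgb8 (-2.53 ± 0.65) and Itgb6 (-1.39 ± 0.37) and thrombospondin Thbs1 (-1.50 ± 0.25), and the integrin subunit Itgav was higher (0.91 ± 0.17). The intracellular regulators were mixed, with 4 higher and 3 lower of 9 tested. Skil (1.004 ± 0.20) and Ski (-0.57 ± 0.16), which both repress Smad-driven transcription, went opposite ways, and Tob1 (0.96 ± 0.17) and Smurf1 (0.84 ± 0.14) were higher, while Pmepa1 (-1.48 ± 0.27) and Ppm1a (-1.06 ± 0.15) were lower. Of the other BMP targets, Dlx3, a transcription factor of differentiating keratinocytes, rose by 6.62 ± 0.48 and Id4 by 2.46 ± 0.57, while Hey1 (-3.77 ± 0.65) and Atoh8 (-3.25 ± 0.53) were lower. Of 10 TGF-beta targets, Ccn2 (-2.06 ± 0.34) and Ccn1 (-1.74 ± 0.32) were among 5 that were lower in epithelium, and Cdkn2b (1.82 ± 0.69) and Cdkn1a (1.10 ± 0.20) were higher.

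Age was compared within each layer. In epithelium 41 members were tested between 5 aged and 4 young mice, with a covariate that separates O1, O2, O3, Y1 and Y3 from the mice without stroma, and none was called in either direction, where 0.00662% of all 15107 genes were called higher and 0.00662% lower. At an unadjusted p under 0.05 a single member stood out with edgeR (507 of all genes did), and DESeq2 also called no member, with 2 at an unadjusted p under 0.05. The single member with edgeR was Fstl1, with 29.4 in O1, 25.1 in O2, 27.0 in O3, 21.4 in OF5 and 18.4 in OM8 against 28.7 in Y1, 37.9 in Y3, 20.4 in YF5 and 49.5 in YM4 normalized counts. The groups overlapped, with YF5 below 4 of the 5 aged mice and Y1 below O1, and the log2 fold change, aged against young, was -0.51 ± 0.22 (unadjusted p = 0.0364 and adjusted p = 0.999, edgeR). The summed fibroblast markers lay at 280 to 454 in aged and 416 to 632 in young epithelium, and their part in this value was not tested. The other tested members had log2 fold changes between -0.45 and 0.65, with Gdf11 and Smad9 at the ends. The 6 members called higher in epithelium than in stroma had age log2 fold changes of -0.00 ± 0.21 for Bmp7, -0.27 ± 0.18 for Bmp3, 0.11 ± 0.13 for Acvr1b, -0.07 ± 0.16 for Acvr2a, -0.13 ± 0.16 for Smad2 and 0.10 ± 0.18 for Id1.

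In stroma all 48 members were tested between 3 aged and 2 young mice, and none was called, as 0% of all 21323 genes were called higher and 0% lower. At an unadjusted p under 0.05 edgeR gave 1 member and 776 of all genes, and DESeq2 gave 4 members, none of them called. The 1 member was Bmpr1a, with 31.7 in O1, 30.8 in O2 and 34.4 in O3 against 47.0 in Y1 and 45.8 in Y3. All aged values lay below the young ones (log2 fold change -0.53 ± 0.23, unadjusted p = 0.0472, edgeR) and the adjusted p was above the threshold. Without overlap, 4 of the 48 members were higher in aged stroma (Tgfb2, Acvr1b, Id2 and Id3) and 5 lower (Bmp7, Gdf11, Chrd, Bmpr1a and Bmpr2), where 6.57% of all genes were higher and 14% lower. Id2, an example with a larger value, had 11.5, 3.25 and 4.59 in the stroma of O1, O2 and O3 against 1.08 and 2.84 in Y1 and Y3 (log2 fold change 1.69 ± 0.77, unadjusted p = 0.0536, edgeR). The summed smooth muscle markers (5 genes) were 816 to 2051 in aged and 303 to 600 in young stroma, those of epithelium 66.0 to 482 and 51.1 to 81.0, and those of Schwann cells 10.7 to 36.1 and 44.7 to 61.8, and their part in the age values was not tested.

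An interaction term fitted on the 5 mice that gave both layers (10 samples) tested whether the age difference differed between epithelium and stroma. None of the 48 members was called, as 0% of all 22771 genes were called higher and 0% lower, and edgeR gave 3 members and 979 genes at an unadjusted p under 0.05. DESeq2 called none of the members, with 4 at an unadjusted p under 0.05. The 3 members with edgeR were Bmp7, Bmpr1a and Fstl1, given here as the age difference in epithelium minus that in stroma on the log2 scale. The values were -1.01 ± 0.46 for Fstl1 (unadjusted p = 0.0493, edgeR), 0.69 ± 0.25 for Bmpr1a (unadjusted p = 0.0199, edgeR) and 2.34 ± 0.92 for Bmp7 (unadjusted p = 0.0273, edgeR). For Bmp7 the stromal values behind this number were 0 to 0.575 in aged and 0.985 to 2.22 in young mice, or 0 to 43 reads. These age comparisons share samples with the comparison of the layers, so their values are not independent of it.

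**Figure D4:**
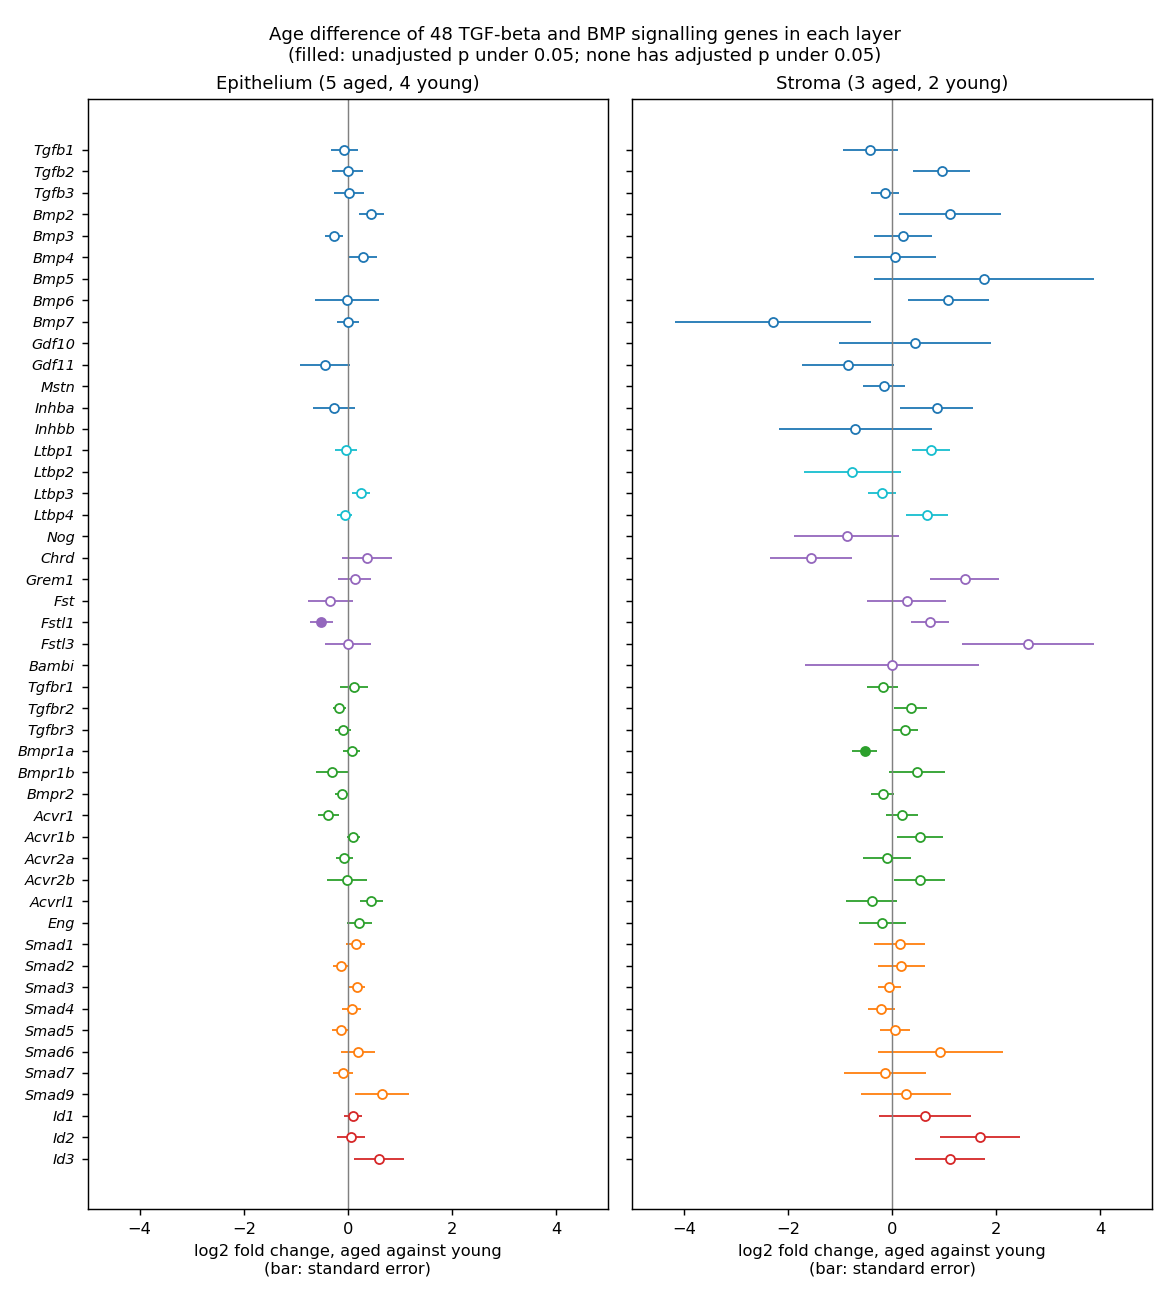
Log2 fold change of each member, aged against young, in epithelium (left, 41 members tested) and stroma (right, 48 tested), with its standard error as a bar; filled points have an unadjusted p under 0.05 and none has an adjusted p under 0.05. Only Fstl1 in epithelium (-0.51) and Bmpr1a in stroma (-0.53) are filled, and the bars in stroma are wider.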

How the data were processed

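Bulk RNA-Seq of 14 samples from 9 mice was used. The libraries were made from poly(A)-enriched RNA, and the authors used Rsubread for alignment to GRCm38.p6 and its featureCounts function for counting per gene, and deposited whole-number counts without normalization. The annotation release, the use of strand and the treatment of multi-mapping reads are not given in the sources used here. Layer, age and mouse came from the labels. Total counts ranged from 8217516 to 21867101.

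Tests over all genes used edgeR 4.0.16 under R 4.3.3 (TMM, filterByExpr with a minimum count of 10, glmQLFit with robust estimation, glmQLFTest), with Benjamini-Hochberg adjustment over all genes tested and a threshold of 0.05. The layers were compared over all 14 samples, age within each layer (in epithelium with a covariate for the 4 mice without stroma, whose codes are written differently) and the interaction in 10 samples. Samples of one mouse are paired by the code that their labels share. The correlation of their deviations from the age means was 0.0422 to 0.0685 in O1, O2 and O3, and 0.141 in Y1 and Y3. Y1 and Y3 give the same value by construction, since 2 mice deviate from their mean by equal amounts in opposite directions. A fit with mouse as a replicate block was run as an alternative. The others were DESeq2 1.42.0, upper quartile normalization, no filter, at least 10 counts in every sample, mitochondrial genes and CT010467.1 left out, subsets and covariates, a test against a fold change of 2, and each mouse left out in turn. The procedure was also run on simulated counts, drawn without pairing of samples by mouse, and the outcome is not reported here. Positions and exon lengths came from GENCODE M21, and promoters from RefSeq. No sample was left out.

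The members and lists were chosen with earlier results of these data known. Sample values were printed for called members without overlap between the layers, up to 3 per role and direction by fold change, with a mean of at least 10 normalized counts in the higher layer. Id1, Id3 and Smad2 and the 5 pairs were added after their values were seen. Of the other pathway lists up to 3 called genes per list and direction were named, and some items are not reported here. The p-values of age within a layer measure the spread between mice. Those of the layer comparison and of the interaction measure the spread between samples, with both layers of a mouse taken as independent unless mouse was a replicate block. Tests and limits do not cover molecules lost before sequencing.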

Additional observations from a re-analysis of the deposited data

Results flagged for a closer look

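Within the epithelial groups, 10 of 92 sets of values of a member held a single sample far from the rest by Dixon's test, where chance sets apart about 1 in 20. In young epithelium 6 of them came from YF5, the library with the fewest reads on the members (931), the highest share of CT010467.1 (73.9%) and the highest summed skeletal muscle markers of any epithelial library (1855 normalized counts). In YF5, Bmp3 had 9.17 normalized counts (19.1 to 21.1 in the other 3), Tgfbr1 1.25 (5.54 to 6.71), Tgfbr2 19.6 (27.2 to 27.7), Bmpr2 64.2 (85.3 to 87.2), Smad1 5.83 (11.1 to 12.5) and Ltbp1 4.17 (9.52 to 9.69). YF5 was the lowest each time.

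In aged epithelium, OM8 had the lowest Bmp7 (4.48, with 9.99 to 13.6 in the other 4) and the highest Acvrl1 (9.43, with 4.82 to 5.58). OF5 had the lowest Smad4 (9.99, with 19.1 to 21.9), and O1 the lowest Gdf11 (0.291, with 0.663 to 0.788). OM8 and OF5 also belong to the 4 shallow libraries, and O1 does not. Without the 4 shallow libraries the calls of Bmp3, Bmp7, Tgfbr1, Tgfbr2, Acvrl1, Smad4, Ltbp1 and Gdf11 between the layers were kept.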

How the results depend on the processing

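Of the 33 called members, 20 kept their call between the layers under every alternative that tested them, and no log2 fold change of the 33 changed sign over 575 refitted values, of which 33 lost the call. The number called higher in epithelium was 4 to 7 under every alternative (6 as reported) and 6 to 7 with each mouse left out. The number called lower (27 as reported) was 24 to 29 with each mouse left out, 30 with DESeq2 or upper quartile normalization, 25 without a filter, 18 when tested against a fold change of 2, and 12 when at least 10 counts were required in every sample, a filter that left 20 members to test. With mouse as a replicate block it was 19, and in the interaction, where it was also fitted, 0 members were called. A block on the mouse number, which only some aged and young mice share and which marks no common animal, also left 0 members called by age in epithelium and in stroma.

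Calls close to the threshold were lost with single mice left out. These were Acvrl1 without O1, O2, Y1, Y3 or YM4 (adjusted p = 0.0535 to 0.163, edgeR), Tgfb1 without O3 or Y1 (0.0568 and 0.0974), Smad4 without Y1 (0.0563) and Grem1 without O2 (0.107). Chrd, Bmpr1a and Smad9 were called lower with DESeq2 and with upper quartile normalization, which moved the median log2 fold change of all genes to -0.12 and -0.15. Calls were also gained by Chrd without O1 or OM8, Bmpr1a without O2 and with at least 10 counts in every sample, Smad9 without OM8 and in the 5 mice with both layers fitted without the block, Bambi without a filter and without O1, and Bmp5 without a filter, all lower. Smad7 was called higher without a filter and without O1 (log2 fold change 1.07), and Bmp2 (1.09) without O2. In the comparisons of age and in the interaction 0 members were called under every alternative, with 0 to 7 at an unadjusted p under 0.05. Depth limits members such as Mstn, Gdf10, Nog and Inhbb in epithelium, where the 4 shallow libraries cannot tell values under 1.25 normalized counts from 0.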
